A study of Mus musculus with 3 samples.

Results

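The genes described are those of the constitutive proteasome, taken from the array by name: every gene called Psma to Psmg followed by a number, except the interferon-inducible subunits Psmb8, Psmb9 and Psmb10. The name rule found 45 genes among 31829 gene names on the array, read by 57 probes. They comprise 14 subunits of the core particle, 17 of the regulatory particle, 7 assembly chaperones, 5 activators and inhibitors and 2 subunits of restricted tissues. Of the 45 genes, 43 were well above background on all 3 arrays. A gene was compared when at least 1 of the arrays compared was well above background, which left 43 genes in anti-VLA-4 over standard diet and 44 in each of the other comparisons.

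RNA came from hepatocytes freed with collagenase from livers of wild-type male C57BL/6 mice, 22 weeks old and fasted overnight, and each of 3 groups was measured on 1 array of 1 colour. The anti-VLA-4 array held RNA of mice fed a high-fat diet for 16 weeks from 6 weeks of age and injected intraperitoneally 2 times a week, over the last 6 of those weeks, with an antibody that blocks VLA-4, an integrin by which leukocytes adhere to endothelium. The HFD-IgG array held RNA of mice on the same diet and injection schedule given control IgG, and the standard-diet array RNA of mice fed a standard diet for 16 weeks, for which no injection is described. How many mice were pooled for an array, if any, is not stated. With 1 array per group no difference has a replicate check, no test was possible, and diet and injection cannot be told apart where a high-fat array is set against the standard diet. The standard-diet and HFD-IgG arrays lay on 1 slide and the anti-VLA-4 array on another, so the antibody and the slide also cannot be told apart.

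The proteasome is the protease that degrades proteins marked with ubiquitin. Its core particle is a barrel of stacked rings of alpha and beta subunits, and only Psmb5, Psmb6 and Psmb7 among the constitutive beta subunits carry the proteolytic sites. The regulatory particle caps the barrel: its base holds a ring of ATPases that unfold the substrate, and its lid removes the ubiquitin chain. Under interferon, Psmb8, Psmb9 and Psmb10 replace the 3 catalytic subunits in newly made particles, the immunoproteasome, which is abundant in immune cells.

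Every value is an array signal divided by the 75th percentile of all spots of its array, and differences are on the log2 scale. Levels of different genes are not compared, since each probe binds with its own strength. Probes of a constitutive subunit and of its inducible replacement are shown because the report sets these genes against each other. The Psmb5 probe shown is its second probe, and the contrast of Psmb8 with Psmb5 used the other one. A probe of Psmb5 (chr14:55233161-55233220, minus strand, mm9) and the probe of Psmb8 (chr17:34337771-34337830, plus strand, mm9) cover related coding sequence, and with the Psmb8 probe starting 10 bases into the Psmb5 probe they have the same base at 31 of 50 overlapping positions (62%), shown in capitals.
Psmb5: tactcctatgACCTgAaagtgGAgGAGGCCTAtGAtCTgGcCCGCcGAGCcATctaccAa
Psmb8: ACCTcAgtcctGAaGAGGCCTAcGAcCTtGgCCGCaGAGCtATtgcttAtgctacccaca
Psmc4 and Psmd9 are shown because their differences were among the lowest of their classes. The Psmc4 probe spans an exon junction between 28827132 and 28827373 on chromosome 7 (minus strand, mm9), and the Psmd9 probe lies at chr5:123691881-123691940 (plus strand, mm9). Capitals mark runs of at least 4 purines.
Psmc4: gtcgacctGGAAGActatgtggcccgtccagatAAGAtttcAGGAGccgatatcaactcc
Psmd9: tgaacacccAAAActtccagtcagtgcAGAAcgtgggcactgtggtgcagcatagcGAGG

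Signal of the core and regulatory particles was lower on both high-fat arrays than on the standard-diet array. The standard-diet array had the highest signal of the 3 for 31 of 31 subunits of the 2 particles, while the lowest signal fell on the anti-VLA-4 array for 17 and on the HFD-IgG array for 14. Quantile scaling, cyclic loess and subtraction of the bright-gene median turned 1 of them, Psma6, to just above 0 in HFD-IgG over standard diet. Both comparisons with the standard diet share that array. In HFD-IgG over standard diet, the median log2 difference was -0.36 over 14 core subunits and -0.55 over 17 regulatory subunits, against -0.10 over 8187 genes with a mean level above the 75th percentile (bright genes, a set chosen after the data were seen) and 0.04 over all genes compared. The subunit differences were mostly below 1.5-fold, and a difference had a scanner error of 0.20. That error covers only the reading of a spot; differences between mice, preparations and hybridisations are not known here.

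In HFD-IgG over standard diet, 8 of 44 proteasome genes were at least 1.5-fold lower. Of all 21964 genes compared, 7.79% were that much lower, and of the bright genes 6.71%. The 8 genes are the core subunit Psma5, the ATPases Psmc1, Psmc2 and Psmc4, the base scaffold Psmd1, the ubiquitin receptor Psmd4, the chaperone Psmd9 and the activator Psme4. Only Psmb11 was at least 1.5-fold higher, beside 27.9% of all genes compared and 5.23% of bright genes. In all, 39 of 44 genes were below 0, with a median of -0.40, against 46.4% of all genes compared and 63.4% of bright genes below 0. Of the 43 with measured differences 20 were lower by more than 2 scanner errors, against 14.8% of all genes measured and 15.7% of bright genes.

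In anti-VLA-4 over standard diet, 12 of 43 genes were at least 1.5-fold lower, beside 9.42% of all 20298 genes compared and 6.66% of bright genes. They are the beta subunits Psmb2, Psmb4 and Psmb6, the ATPases Psmc1, Psmc4 and Psmc5, the receptor Psmd4, the lid subunits Psmd11 and Psmd12, the chaperone Psmd9, the activator Psme4 and the inhibitor Psmf1. None of the 43 was at least 1.5-fold higher, beside 16.3% of all genes and 6.93% of bright genes. The median over the proteasome genes was -0.45 and 39 of 43 were below 0, against 49.6% of all genes compared and 61.7% of bright genes. Of the 43, 24 were lower by more than 2 scanner errors, against 14.3% of all genes measured and 15.5% of bright genes. At a 2-fold threshold Psmd9 alone was lower, in both comparisons with the standard diet, beside 3.39% of all genes and 1.26% of bright genes in anti-VLA-4 and 2.42% and 1.72% in HFD-IgG.

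**Figure D1:**
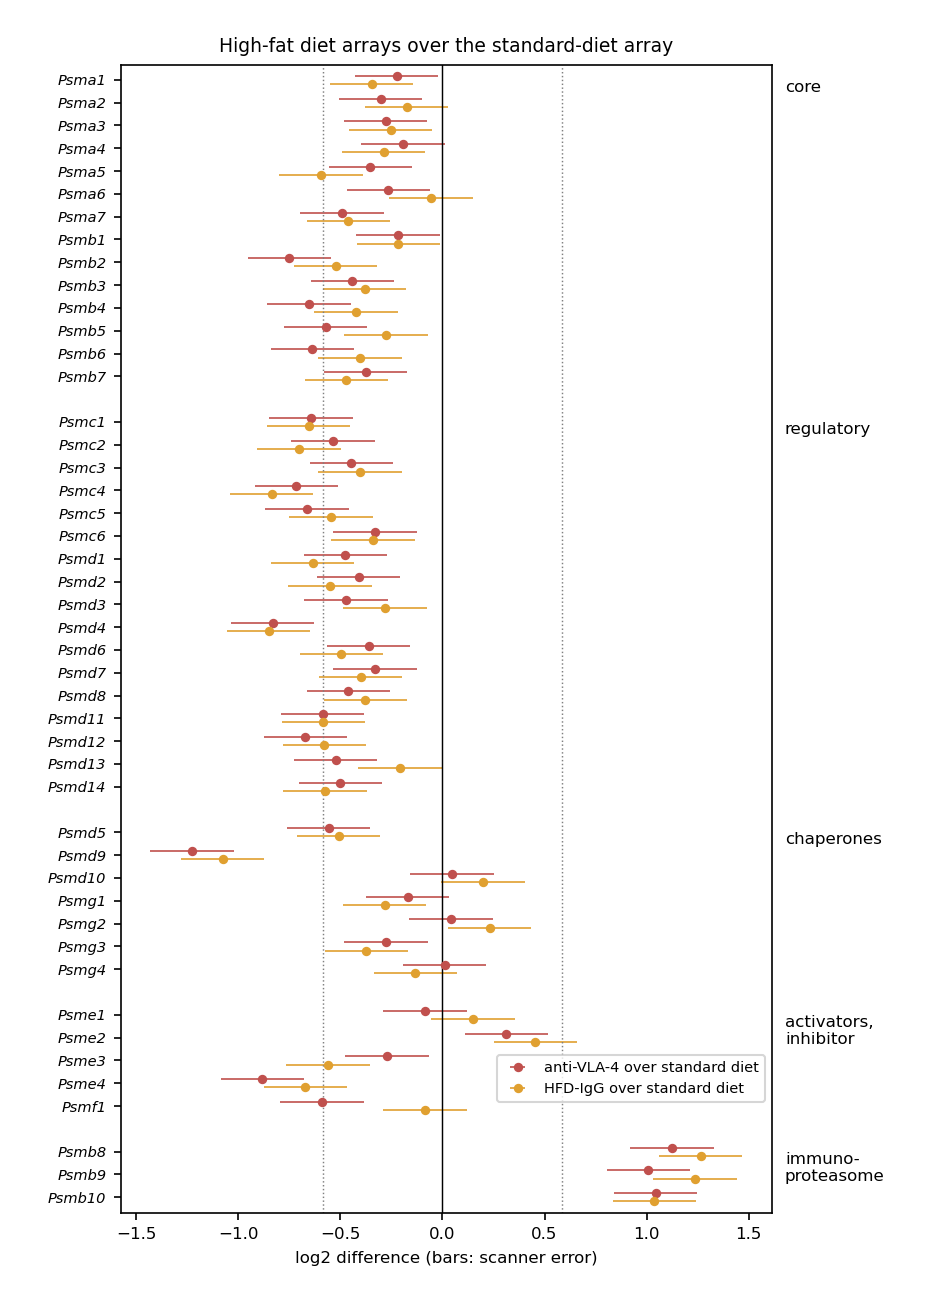
Log2 difference of each proteasome gene (rows) in anti-VLA-4 over standard diet (red) and HFD-IgG over standard diet (yellow); points are 1 array over 1 array, bars are the scanner's error of a difference, and dotted lines mark 1.5-fold. All 31 core and regulatory subunits lie left of 0 in both, while Psmb8, Psmb9 and Psmb10 lie right of 1.0. Psma8 and Psmb11, which are tissue-restricted, are not drawn.

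Among the alpha subunits, which form the outer rings and the gate of the barrel, differences were small. Psma5 had a signal of 14.1 in anti-VLA-4, 11.9 in HFD-IgG and 18 in standard-diet hepatocytes. It was 1.51-fold lower in HFD-IgG than on the standard diet (log2 difference -0.60), just past the 1.5-fold threshold, and differed by -0.35 in anti-VLA-4 over standard diet. Psma7 had 31.8 in anti-VLA-4, 32.5 in HFD-IgG and 44.7 in standard-diet hepatocytes, differences of -0.49 and -0.46 for the 2 high-fat arrays over the standard diet. Both genes were highest on the standard diet. The high-fat arrays were nearly equal for Psma7 and differed by 0.24 for Psma5, just over the scanner error.
The other 5 alpha subunits differed less. Psma6 had 14.4 in anti-VLA-4, 16.6 in HFD-IgG and 17.3 in standard-diet hepatocytes, and its difference of -0.06 in HFD-IgG over standard diet was the smallest of the core. Psma2 had 40, 43.7 and 49.3 on the arrays in the same order, with -0.18 in HFD-IgG over standard diet. Psma4 had 9.80, 9.17 and 11.2, and its difference between anti-VLA-4 and the standard diet, -0.19, was the smallest of the core. Differences of this size are within about 1 scanner error. Over the 7 alpha subunits the median was -0.29 in HFD-IgG over standard diet and -0.28 in anti-VLA-4 over standard diet.

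Of the catalytic beta subunits, Psmb5 carries the chymotrypsin-like site. Its signal was 83.7 in anti-VLA-4, 103 in HFD-IgG and 125 in standard-diet hepatocytes. The differences were -0.57 in anti-VLA-4 over standard diet, which is 1.49-fold lower and just short of the threshold, and -0.28 in HFD-IgG over standard diet. Its second probe, the one printed above, gave -0.64 and -0.23. Both probes thus read lowest on the anti-VLA-4 array and highest on the standard diet.
Psmb6, the caspase-like site, had 51.5 in anti-VLA-4, 60.6 in HFD-IgG and 80.2 in standard-diet hepatocytes. It was 1.56-fold lower in anti-VLA-4 than on the standard diet, and its difference in HFD-IgG over standard diet was -0.40. Psmb7, the trypsin-like site, had 10.9, 10.2 and 14.2 on the arrays in the same order, and differed by -0.38 in anti-VLA-4 and -0.47 in HFD-IgG from the standard diet. For Psmb7 the 2 high-fat arrays were alike, whereas for Psmb5 and Psmb6 the anti-VLA-4 array was the lowest.
Among the structural beta subunits, Psmb4 had 47.3 in anti-VLA-4, 55.4 in HFD-IgG and 74.3 in standard-diet hepatocytes, and was 1.57-fold lower in anti-VLA-4 than on the standard diet. Psmb2 had 1.31, 1.54 and 2.21 on the arrays in the same order and was 1.68-fold lower in anti-VLA-4 than on the standard diet (log2 difference -0.75), the lowest of the core. Psmb1 had 16.1, 16.1 and 18.7, with a difference of -0.22 from the standard diet on either high-fat array. Psmb2 and Psmb4 were lowest on the anti-VLA-4 array, and Psmb1 differed by about 1 scanner error. Over the 7 beta subunits the median was -0.40 in HFD-IgG over standard diet and -0.57 in anti-VLA-4 over standard diet.

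The 6 ATPases of the base form the ring that unfolds substrates and opens the core. Psmc4 had 9.97 in anti-VLA-4, 9.16 in HFD-IgG and 16.4 in standard-diet hepatocytes. It was 1.64-fold lower in anti-VLA-4 and 1.79-fold lower in HFD-IgG than on the standard diet. Both high-fat arrays stood well below the standard diet and within 1 scanner error of each other.
Psmc1 had 55.7, 55.3 and 87.1 on the arrays in the same order, 1.56-fold lower in anti-VLA-4 and 1.57-fold lower in HFD-IgG than on the standard diet. Psmc2 had 26.7, 23.8 and 38.7, and was 1.63-fold lower in HFD-IgG, with a difference of -0.54 in anti-VLA-4, both from the standard diet. Its second probe gave -0.62 in HFD-IgG and -0.81 in anti-VLA-4 over standard diet. Psmc5 had 6.91, 7.50 and 11, and was 1.58-fold lower in anti-VLA-4, with -0.55 in HFD-IgG. These 3 ATPases were highest on the standard diet, and their differences between the high-fat arrays were below the scanner error. Psmc6, at 5.50, 5.46 and 6.91, and Psmc3, at 75.1, 77.4 and 102, did not reach 1.5-fold. Over the 6 ATPases the median was -0.60 in HFD-IgG over standard diet and -0.59 in anti-VLA-4 over standard diet.

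Psmd4, a receptor of the base that binds ubiquitin chains, had 40.5 in anti-VLA-4, 40 in HFD-IgG and 72.2 in standard-diet hepatocytes. It was 1.78-fold lower in anti-VLA-4 and 1.80-fold lower in HFD-IgG than on the standard diet, the lowest of the regulatory particle in each comparison. Psmd1, the larger scaffold of the base, had 20.5, 18.4 and 28.5 on the arrays in the same order and was 1.55-fold lower in HFD-IgG than on the standard diet. Its difference in anti-VLA-4 over standard diet was -0.48. For Psmd4 the high-fat arrays were nearly equal.
The lid holds Psmd14, the metalloprotease that cuts ubiquitin from substrates, and scaffold subunits around it. Psmd12 had 25 in anti-VLA-4, 26.7 in HFD-IgG and 39.9 in standard-diet hepatocytes, and was 1.59-fold lower in anti-VLA-4 than on the standard diet, with -0.58 in HFD-IgG. Psmd14 had 2.02, 1.92 and 2.86, differences of -0.50 and -0.57 for the anti-VLA-4 and HFD-IgG arrays over the standard diet. The high-fat arrays lay close together for both.
Psmd11 had 5.97, 5.98 and 8.97 and stood on either side of the threshold, inside it at 1.501-fold lower in anti-VLA-4 and outside it at 1.499-fold lower in HFD-IgG. Psmd13 had 7.25, 9.02 and 10.4, and its difference of -0.21 was the smallest of the regulatory particle in HFD-IgG over standard diet, against -0.52 in anti-VLA-4 over standard diet. Psmd3 had 34.5, 39.3 and 47.8, with -0.47 in anti-VLA-4 and -0.28 in HFD-IgG over standard diet. Psmd7 had 6.68, 6.36 and 8.4, with -0.33 in anti-VLA-4 and -0.40 in HFD-IgG over standard diet. Psmd13 and Psmd3 were lowest on the anti-VLA-4 array, and Psmd7 differed from the standard diet alike on both. The remaining regulatory subunits Psmd2, Psmd6 and Psmd8 had differences between -0.55 and -0.36.

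**Figure D2:**
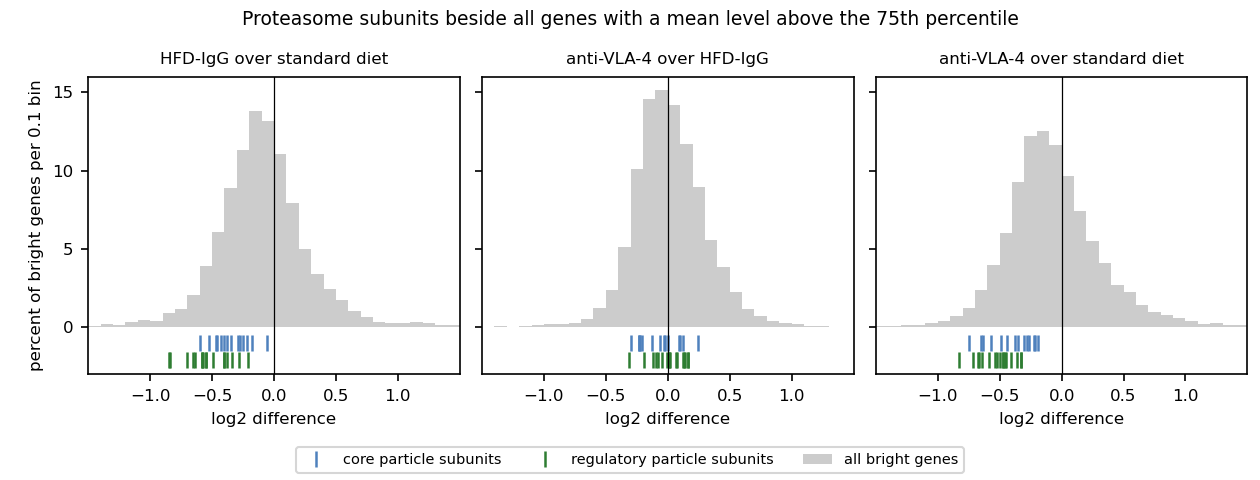
Percent of 8187 bright genes (gray, vertical axis) by log2 difference (horizontal axis, bins of 0.1, values beyond 1.5 either way not shown) in the 3 comparisons, with a tick below for each core (blue) and regulatory (green) subunit. The subunits lie in the left part of the bright genes in HFD-IgG and anti-VLA-4 over standard diet, and around the middle in anti-VLA-4 over HFD-IgG.

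Between the high-fat arrays the particles differed little. In anti-VLA-4 over HFD-IgG the median was -0.05 over the core and 0.01 over the regulatory particle, against 0.00 over bright genes. By the probe used for each gene, no subunit of either particle differed by 2 scanner errors. The second probe of Psmb5 had a larger difference than the probe used, -0.41 beside -0.30. None of the 44 proteasome genes compared was at least 1.5-fold higher, beside 7.11% of all 22551 genes and 3.55% of bright genes. Psmb11 alone was at least 1.5-fold lower, beside 23.3% of all genes and 1.75% of bright genes. The highest core differences were 0.24 in Psma5, 0.12 in Psma1 and 0.10 in Psma4, and the lowest -0.30 in Psmb5, -0.23 in Psmb6 and -0.23 in Psmb4. In the regulatory particle the highest were 0.17 in Psmc2, 0.16 in Psmd1 and 0.14 in Psmd2. The lowest were -0.31 in Psmd13, -0.19 in Psmd3 and -0.12 in Psmc5. The second probe of Psmc2 had the opposite direction, at -0.19. The alpha subunits had a median of -0.02, with 4 of 7 below 0, and the beta subunits of -0.23, with 6 of 7 below 0. Of all genes compared 56.3% were below 0, and of bright genes 50.2%. Psmf1, a protein that inhibits the proteasome in vitro, had 0.771 in anti-VLA-4, 1.09 in HFD-IgG and 1.16 in standard-diet hepatocytes. It was 1.42-fold lower in anti-VLA-4 than in HFD-IgG and 1.5-fold lower in anti-VLA-4 than on the standard diet. By the probe used for each gene, the first was the one measured difference beyond 2 scanner errors between the high-fat arrays. Of all genes measured 16.0% were lower and 11.1% higher by that much, and of bright genes 5.03% and 8.99%.

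**Figure D3:**
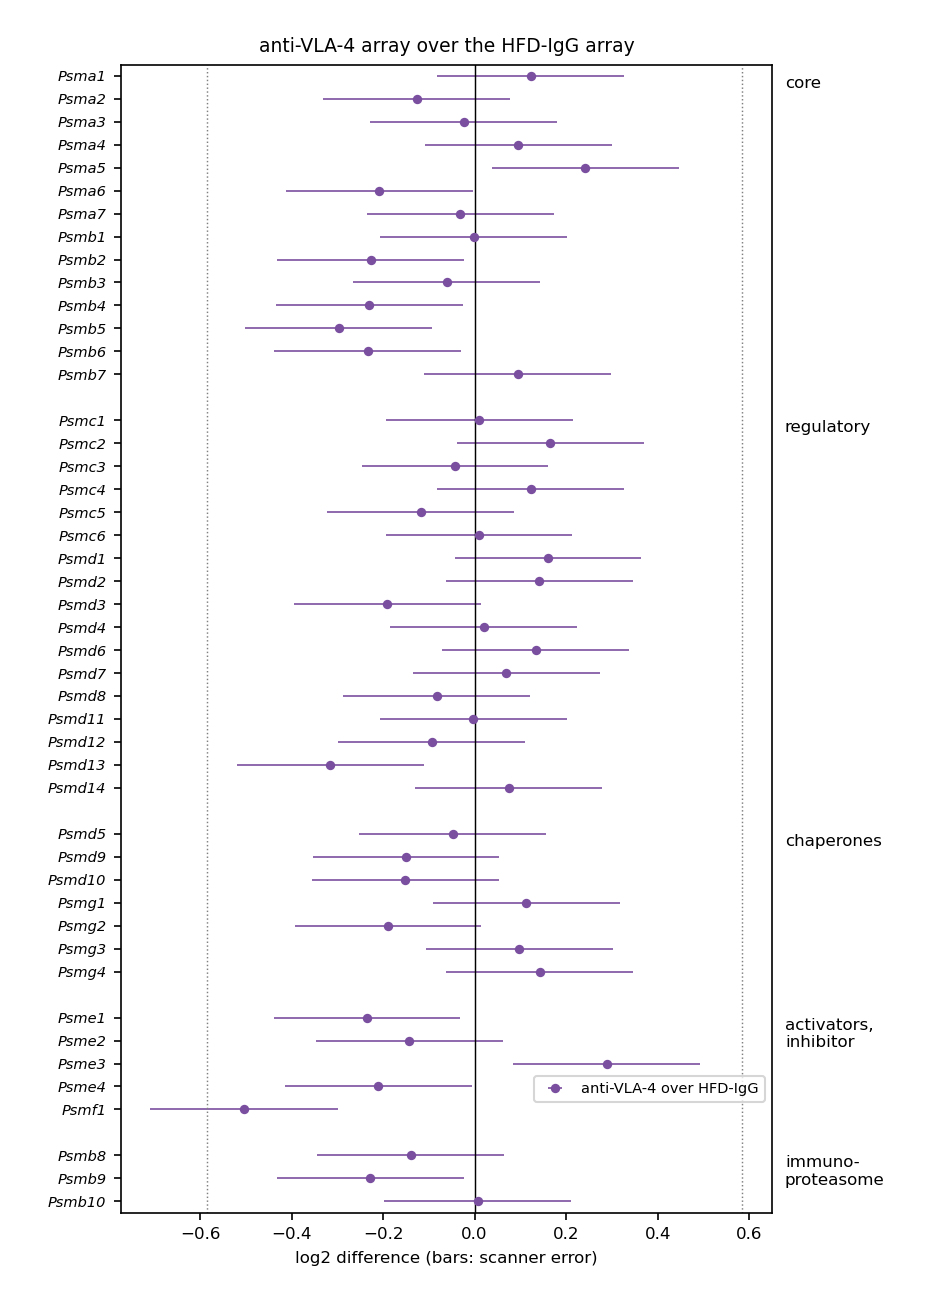
Log2 difference of each proteasome gene in anti-VLA-4 over HFD-IgG; points are 1 array over 1 array, bars are the scanner's error, and dotted lines mark 1.5-fold. All points shown lie between the dotted lines, the lowest being Psmf1 at -0.50.

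Of the 7 assembly chaperones, 1 passed 1.5-fold against the standard diet, on both high-fat arrays. Psmd9, which helps to build the ATPase ring, had 2.84 in anti-VLA-4, 3.15 in HFD-IgG and 6.65 in standard-diet hepatocytes. It was 2.34-fold lower in anti-VLA-4 and 2.11-fold lower in HFD-IgG than on the standard diet. Its second probe, further along the gene, gave log2 differences of -0.78 and -1.02 beside -1.23 and -1.08 for the first. Both probes of Psmd9 were highest on the standard diet.
Psmd5, another chaperone of the base, had 1.65, 1.70 and 2.42 on the arrays in the same order, with -0.56 in anti-VLA-4 and -0.51 in HFD-IgG over standard diet. Psmd10, also known as gankyrin, had 0.953, 1.06 and 0.922, and its 2 probes gave opposite directions in each comparison, by less than 1.5-fold. Psmg1 to Psmg4, which assemble the alpha ring, had differences between -0.37 and 0.23 from the standard diet. Over the 7 chaperones the median was -0.28 in HFD-IgG over standard diet and -0.17 in anti-VLA-4 over standard diet.

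Of the 5 activators and inhibitors, Psme4 and Psmf1 passed 1.5-fold in a comparison. Psme1 and Psme2 encode the interferon-inducible PA28 ring, and Psme4 encodes PA200, a nuclear activator. Psme2 had 41.5 in anti-VLA-4, 45.8 in HFD-IgG and 33.4 in standard-diet hepatocytes, and Psme1 had 14.3, 16.8 and 15.2. The differences from the standard diet were 0.31 in anti-VLA-4 and 0.46 in HFD-IgG for Psme2, and -0.09 and 0.15 for Psme1. Neither reached 1.5-fold, and Psme2 in HFD-IgG was the one measured member higher by more than 2 scanner errors. Of all genes measured 17.8% were that much higher in HFD-IgG over standard diet, and of bright genes 8.92%. Normexp turned Psme2 below 0, to -0.14 in anti-VLA-4 and -0.27 in HFD-IgG, and Psme1 to -0.51 in HFD-IgG, where the bright-gene median was then -0.57. Psme1 was printed in 10 spots on each array, with an SD of log2 signal of 0.0585, 0.0914 and 0.0628 on the anti-VLA-4, HFD-IgG and standard-diet arrays.
Psme4 had 1.04 in anti-VLA-4, 1.2 in HFD-IgG and 1.91 in standard-diet hepatocytes, 1.84-fold lower in anti-VLA-4 and 1.59-fold lower in HFD-IgG than on the standard diet. Its second probe gave -0.50 and -0.52, beside -0.88 and -0.67. Psme3, the nuclear PA28 gamma, had 9.54, 7.81 and 11.5, with -0.27 and -0.56. All probes of Psme3 and Psme4 were highest on the standard diet, opposite to Psme2.

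The genes of restricted tissues were dim. Psma8, a testis subunit, was not well above background on any array and was not compared. Psmb11, the thymus subunit, had 0.00577 in anti-VLA-4, 0.268 in HFD-IgG and 0.00670 in standard-diet hepatocytes, and was well above background in HFD-IgG alone. It was at least 10.4-fold higher in HFD-IgG than on the standard diet, and at least 12-fold lower in anti-VLA-4 than in HFD-IgG. Such a fold is a lower bound against the lowest signal well above background on the dim array. The Psmb11 probe is 70% purines, against a median of 50% over all chosen probes, and its part in the result was not tested.

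The inducible catalytic subunits went the other way. Psmb8 had 4.83 in anti-VLA-4, 5.32 in HFD-IgG and 2.21 in standard-diet hepatocytes. Psmb9 had 5.55, 6.5 and 2.76 on the arrays in the same order, and Psmb10 17.8, 17.7 and 8.63. In HFD-IgG over standard diet they were 2.40-fold, 2.36-fold and 2.05-fold higher, and in anti-VLA-4 over standard diet 2.18-fold, 2.01-fold and 2.06-fold higher. All 3 were lowest on the standard diet, where Psmb5, Psmb6 and Psmb7 were highest. With normexp background correction the folds were smaller, 1.52, 1.60 and 1.32 in HFD-IgG and 1.57, 1.45 and 1.52 in anti-VLA-4, so Psmb10 in HFD-IgG and Psmb9 in anti-VLA-4 no longer reached 1.5-fold.
The log2 difference of Psmb8 less that of Psmb5 was 1.70 in anti-VLA-4 over standard diet and 1.54 in HFD-IgG over standard diet, with a scanner error of 0.29. For Psmb9 less Psmb6 it was 1.65 and 1.64, and for Psmb10 less Psmb7 1.42 and 1.51. Between the high-fat arrays the same contrasts were 0.16, 0.01 and -0.09. The pairs thus parted by more than the scanner error against the standard diet and by less than it between the high-fat arrays. With normexp the contrasts against the standard diet lay between 1.45 and 1.86 in anti-VLA-4 and reached 1.69 in HFD-IgG.
Of 13 genes of the immunoproteasome and of peptide loading, 6 were at least 1.5-fold higher and 0 lower in HFD-IgG over standard diet, 8 and 0 in anti-VLA-4 over standard diet, and 2 and 0 in anti-VLA-4 over HFD-IgG. Of all genes compared 27.9%, 16.3% and 7.11% were that much higher in these comparisons, and of bright genes 5.23%, 6.93% and 3.55%. With normexp 5 were higher in each comparison with the standard diet, and the share of all genes was not counted under that setting.

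**Figure D4:**
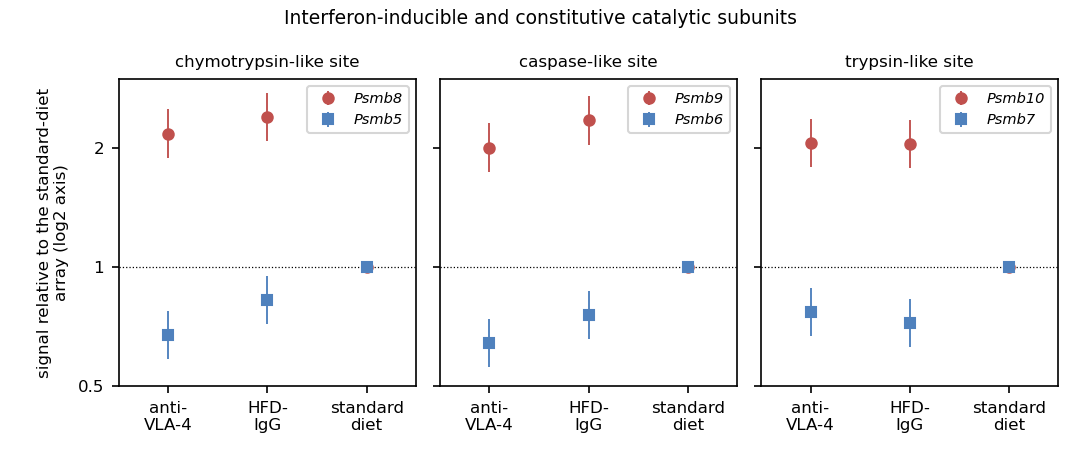
Signal of each catalytic subunit relative to the standard-diet array (log2 axis) on the anti-VLA-4, HFD-IgG and standard-diet arrays, for the inducible (red circles) and constitutive (blue squares) subunit of each site; bars are the scanner's error. The inducible subunits stand at 2 or above on both high-fat arrays and the constitutive ones between 0.5 and 1; on the standard diet both are 1 by construction and the squares cover the circles.

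Markers of other liver cells differed between the same arrays. The signal summed over 16 Kupffer cell and macrophage markers was 59.2 in anti-VLA-4, 77.4 in HFD-IgG and 11.8 in standard-diet hepatocytes. The sums over 14 sinusoidal endothelial markers were 43.1, 76.0 and 18.2, and over 14 stellate markers 24.6, 52.2 and 5.07. All 15 macrophage markers compared were at least 1.5-fold higher on each high-fat array than on the standard diet. Of all genes compared 27.9% in HFD-IgG and 16.3% in anti-VLA-4 were that much higher, and of bright genes 5.23% and 6.93%. At least 1.5-fold lower were 7.79% and 9.42% of all genes, and 6.71% and 6.66% of bright genes. Of the stellate markers 12 were well above background in anti-VLA-4, 14 in HFD-IgG and 6 in standard-diet hepatocytes. Among 8 neutrophil and monocyte markers compared with the standard diet, 6 passed 1.5-fold upward and 0 downward on each high-fat array, and the medians were 1.09 in anti-VLA-4 and 1.15 in HFD-IgG. Their sums of 68.1, 78.2 and 72.0 on the anti-VLA-4, HFD-IgG and standard-diet arrays were mostly the signal of Csf3r, at 58.3, 69.7 and 66.2. Of the T and NK cell markers compared, 2 of 6 were higher and 1 lower in anti-VLA-4, and 3 of 7 higher and 1 lower in HFD-IgG, against the standard diet. Cd4, the lower one on both, made up most of their sums of 19.5, 14.4 and 28.9, at 15.6, 10.8 and 24.9. The 18 hepatocyte markers, all well above background on the 3 arrays, summed to 5431 in anti-VLA-4, 5657 in HFD-IgG and 5898 in standard-diet hepatocytes. Median differences of the 18 from the standard diet were -0.24 in anti-VLA-4, with 1 at least 1.5-fold higher and 1 lower, and -0.08 in HFD-IgG, with 0 higher and 4 lower. The 4 were Cps1 (-1.14), Tat (-0.99), Apoa1 (-0.73) and Hnf4a (-0.68), named after their values were seen. Of the 18 markers, 9 were above 0 in HFD-IgG and 7 in anti-VLA-4 over standard diet. In anti-VLA-4 the 1 that was higher was Fga (0.62) and the 1 that was lower was Tat (-0.67). The part of these cells in the proteasome differences was not tested. Less RNA per cell and fewer cells of a type cannot be told apart in such bulk samples.

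Among 26 proteasome partners and regulators, 6 were at least 1.5-fold lower and 0 higher in HFD-IgG over standard diet, 7 lower and 0 higher in anti-VLA-4 over standard diet, and 0 either way in anti-VLA-4 over HFD-IgG. Their medians were -0.35, -0.34 and 0.03. Of all genes compared 7.79% and 9.42% were that much lower in the first 2 comparisons, and of bright genes 6.71% and 6.66%. Normexp gave 13 lower and 4 higher in HFD-IgG and 11 lower and 1 higher in anti-VLA-4 over standard diet. Less the bright-gene median there were 3 lower and 1 higher, and 4 lower and 2 higher. The share of all genes past 1.5-fold was not counted under either setting, so these counts cannot be read against the shares above. Normexp moved the median of all genes to 0.68 in HFD-IgG and 0.38 in anti-VLA-4 over standard diet. It moved that of bright genes to -0.57 and -0.40. Usp14, a deubiquitinase that docks on the base, had 6.34 in anti-VLA-4, 6.03 in HFD-IgG and 10.1 in standard-diet hepatocytes, 1.60-fold lower in anti-VLA-4 and 1.68-fold lower in HFD-IgG than on the standard diet. The shuttle factors Ubqln1 and Ubqln2, which carry ubiquitinated proteins to the proteasome, fell in both, with log2 differences of -0.75 and -0.64 in anti-VLA-4 and of -0.68 and -0.70 in HFD-IgG. These genes were highest on the standard diet, like the subunits they bind.
Other partners past the threshold included Zfand2a in both comparisons (-0.69 in anti-VLA-4 and -0.68 in HFD-IgG), the redox protein Txnl1 and Ufd1l, a cofactor of the unfoldase Vcp, in HFD-IgG (-0.76 and -0.65), and the receptor Adrm1 and the Vcp cofactor Nploc4 in anti-VLA-4 (-0.60 and -0.70). Uchl5, another deubiquitinase of the base, had 3.15, 3.17 and 3.33 on the anti-VLA-4, HFD-IgG and standard-diet arrays, and the core chaperone Pomp 24.6, 25.7 and 25.3. Both were about level. Nfe2l1, which encodes the transcription factor that raises proteasome genes when the proteasome is inhibited, had 0.676, 0.674 and 0.453, differences of 0.58 and 0.57 from the standard diet, short of 1.5-fold.
Outside the proteasome, 14 genes of ubiquitin and its activating and conjugating enzymes had medians, against the standard diet, of -0.23 in anti-VLA-4 and -0.22 in HFD-IgG. Of them 0 passed 1.5-fold in the first comparison and 1, Ube2d1, was lower in the second, and 1 was higher in anti-VLA-4 over HFD-IgG. The polyubiquitin gene Ubb differed by -0.24 in anti-VLA-4 and -0.17 in HFD-IgG from the standard diet. Over 17 genes of selective autophagy the medians were -0.16 and -0.32, with 1 lower and 0 higher in each comparison with the standard diet, and 1 higher in anti-VLA-4 over HFD-IgG. These counts of lower genes lie near or below the shares over all genes given above. With normexp 4 ubiquitin genes were lower and 3 higher in anti-VLA-4, and 8 lower and 3 higher in HFD-IgG, over standard diet. The autophagy genes then had 5 lower in anti-VLA-4 and 9 in HFD-IgG, with 0 higher in each. The normexp counts of both lists likewise have no share of all genes beside them.

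Within the proteasome genes, probes of the same gene mostly had the same direction. Of 11 genes with several probes, 10 had all probes on 1 side of 0 in each comparison with the standard diet, the exception being Psmd10. In anti-VLA-4 over HFD-IgG 7 did, and no gene had probes at least 1.5-fold apart in opposite directions. Probes of Psme2 had the same direction but not the same size. The one on chromosome 11 had at least 3.66 in HFD-IgG over standard diet, against 0.46 and 0.58 on chromosome 14. In anti-VLA-4 over HFD-IgG it had -3.36, against -0.14 and -0.27. The 45 genes lie on 16 chromosomes, with 8 on chromosome 11, 6 on chromosome 14 and 6 on chromosome 2.
Of the 45 genes, 37 have a promoter in a RefSeq table (GRCm38.p6, 250 bases before to 50 after the start). The letters TGACNNNGC, the core of the antioxidant response element, known for the binding of Nfe2l1 and Nfe2l2, were searched on both strands. They stood in 6 of the 37 genes, Psmb5, Psmb6, Psmc6, Psmd12, Psmd9 and Psme4. The share was 15% of the 40 promoters of these genes, against 13% of 21263 protein-coding promoters. The letters CCAAT were found in 32.5% against 38.2%, and the interferon-type motif TTCNNNGAA in 5% against 7.69%. The motifs were picked after values of these genes had been seen. Of the 6 genes with TGACNNNGC, Psmb6, Psmd9, Psmd12 and Psme4 passed 1.5-fold against the standard diet, and Psmb5 carries a catalytic site. The stretches before the start are shown for Psmb5, Psmb6 and Psmd9 only, with TGACNNNGC in capitals. They lie at chr14:54618004-54618072 (minus strand) for Psmb5, chr11:70525318-70525356 (plus strand) for Psmb6 and chr5:123228129-123228189 (plus strand) for Psmd9, on GRCm38.p6.
Psmb5: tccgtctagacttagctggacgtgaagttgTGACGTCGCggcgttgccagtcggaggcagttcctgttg
Psmb6: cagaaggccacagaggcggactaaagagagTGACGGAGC
Psmd9: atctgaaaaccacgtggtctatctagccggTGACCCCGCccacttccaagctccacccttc

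Normexp background correction moved the median of bright genes to -0.40 in anti-VLA-4 and -0.57 in HFD-IgG, both over standard diet, so the subunits were also set against the bright genes under each setting, which was chosen after the data were seen. Less the median of bright genes, the core stood at -0.26 and the regulatory particle at -0.45 in HFD-IgG over standard diet without normexp, with 75th-percentile scaling.

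**Figure D5:**
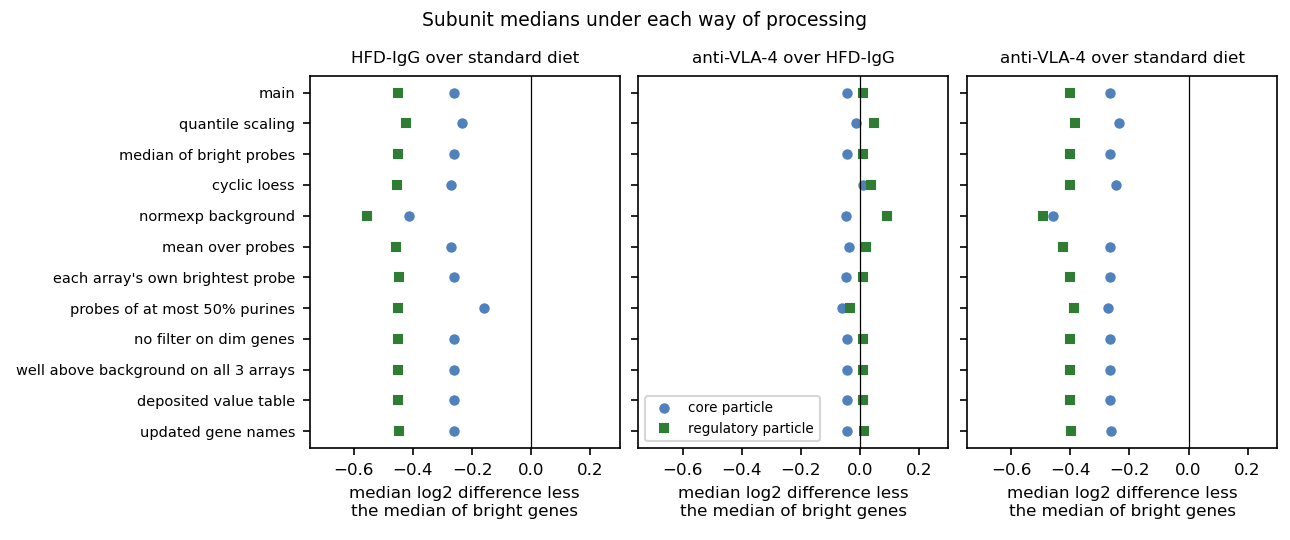
Median log2 difference of the core (blue circles) and regulatory (green squares) particles less the median of bright genes (horizontal axis) under each way of processing (rows), in the 3 comparisons. Against the standard diet all medians lie left of 0, those of the core in HFD-IgG over standard diet between -0.41 and -0.16, and in anti-VLA-4 over HFD-IgG they lie around 0.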

How the data were processed

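Spot intensities in the deposited scanner files come from Agilent Feature Extraction 11.0.1.1 (named in the submitters' processing notes), with background already subtracted, per the file headers. In the deposited table of 23206 spots each value is a linear ratio of processed signal to the 75th percentile of that array. Recomputed values differed from it by at most 2e-08 in relative terms. Its columns have medians of 0.810, 0.796 and 0.787 for anti-VLA-4, HFD-IgG and standard diet. Well-above-background and outlier flags are other entries of these files, per the file headers.

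Here each intensity was divided by the 75th percentile of the 43020 non-control spots on its array, which was 514, 500.3 and 574 in the same order, and log2 was taken. Of these spots 62.4%, 66.5% and 57.3% were well above background and 0 were saturated. Spots marked as outliers were left out, spots of a probe averaged, and the probe with the highest mean taken per gene. The number of arrays limits the precision. Named genes were those of the catalytic sites, activators and tissue-restricted forms, members at least 1.5-fold different, the 3 highest and 3 lowest subunits of each particle in a comparison, and listed partners, with a few others for their roles. Some genes that the rule took are counted in their lists and are otherwise left out here. The members, lists and probes shown were chosen with earlier results of these data known. Psme2 shares sequence with a near-identical copy, so its values are uncertain between copies. Processing was varied by quantile scaling, cyclic loess, scaling to bright probes, normexp with offset 50, other probe choices and filters, a 2-fold threshold, the deposited table and updated names. Steps were tested on simulated data. Software comprised R 4.3.3 with limma 3.58.1, and Python 3.11.15 with pandas 2.3.3, numpy 2.4.6 and matplotlib 3.10.9.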

Additional observations from a re-analysis of the deposited data

Results flagged for a closer look

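Another probe named Psme2 lies away from the gene, at chr11:48759630-48759689 (minus strand, mm9), and was not the probe used for it. It drew attention because it rose far above the standard-diet array while the probes on chromosome 14 did not. RefSeq places Psme2b, a near-identical copy, on chromosome 11. Capitals mark runs of at least 4 purines, which make up much of a probe that is 65% purines.
Psme2-named probe: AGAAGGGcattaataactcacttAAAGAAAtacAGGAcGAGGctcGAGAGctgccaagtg
Its signal was 0.0316 in anti-VLA-4, 0.325 in HFD-IgG and 0.00791 in standard-diet hepatocytes, where it was not well above background. It was at least 12.6-fold higher in HFD-IgG than on the standard diet and 10.3-fold lower in anti-VLA-4 than in HFD-IgG. The part of purine content in this difference was not tested.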

How the results depend on the processing

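Medians of both particles stayed below 0 against the standard diet under every alternative run. In anti-VLA-4 over HFD-IgG, where they lay near 0, the core median turned to 0.09 with normexp and the regulatory median to -0.01 with scaling to bright probes. Of 1122 medians and gene values over the alternatives, 33 changed sign, 14 of them with normexp and 2 of the other 19 by more than the scanner error. Of genes past 1.5-fold 0 changed sign. Normexp moved the particle medians most: to -0.98 for the core and -1.13 for the regulatory particle in HFD-IgG over standard diet, -0.86 and -0.89 in anti-VLA-4 over standard diet, and 0.23 for the regulatory particle in anti-VLA-4 over HFD-IgG, with 37 and 33 genes at least 1.5-fold lower in place of 8 and 12. It also lowered bright genes as a whole. Less their median, the core was at -0.41 and -0.46 against the standard diet. The 12 lower genes in anti-VLA-4 over standard diet were 7 with quantile scaling, 5 with cyclic loess, 5 of the 21 genes that have a probe of at most 50% purines, 5 less the bright median and 1 at 2-fold. The 8 in HFD-IgG over standard diet were 6 with quantile scaling, 6 of the 21 genes with a low-purine probe, 4 with cyclic loess, 4 less the bright median and 1 at 2-fold. Other settings gave more. Scaling to bright probes gave 12 lower genes in HFD-IgG and 14 in anti-VLA-4 over standard diet, and the mean over probes 14 in anti-VLA-4. The single higher gene in HFD-IgG over standard diet was 2 with the mean over probes, 2 with no filter, and 0 with low-purine probes, with the filter on all 3 arrays and in the deposited table. The single lower gene in anti-VLA-4 over HFD-IgG was 2 with the mean over probes and 0 in the last 3 settings. Genes higher in anti-VLA-4 over standard diet were 1 with the mean over probes and 1 with no filter, in place of 0. No replicate could be left out. No paired analysis was possible because each group has 1 array. Without normexp, 948 values of named genes stayed within the scanner error and 10 moved beyond it. With normexp included, 967 stayed within it and 83 moved beyond it. Several alternatives could hardly move these values. The filters, the deposited table, updated names and each array's own brightest probe left the particle medians unchanged. The counts of values that stayed or kept their sign are therefore no measure of robustness. Signal near background limits Psma8 and Psmb11.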
